A study of Mus musculus with 92 samples.

Results

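The report concerns 38 mouse genes that encode the machinery for mitochondrial protein import. The genes are a fixed list of symbols, chosen with earlier results of these data known. Each gene was found once among the 56953 gene IDs of the deposited tables. They comprise 8 genes of the translocase of the outer membrane (TOM), the cytosolic co-chaperone gene Tomm34, 6 small TIM chaperones, 2 genes of the TIM22 carrier translocase, 5 of the TIM23 presequence translocase, 7 of the import motor, 3 of the processing peptidases, 4 of the sorting and assembly machinery (SAM) and 2 of the oxidative import pathway of the intermembrane space. The series has 92 samples, and the 26 used here are RNA-seq and SLAM-seq libraries made from B6 mouse embryonic stem cells, grown with serum, LIF, PD0325901 and CHIR99021. The cells carried a dTAG degron, a tag that lets dTAG-13, a small molecule, send the tagged protein to the proteasome, on both alleles of Gabpa, of Gabpb1, or of Gabpb1 and Gabpb2. GABPA is the ETS-family subunit of the transcription factor GABP that binds DNA, and GABPB1 and GABPB2 are its partner subunits. RNA-seq compared cells given 500 nM dTAG-13 for 12 h with DMSO controls in each of the 3 degron lines. SLAM-seq, in which 500 µM 4-thiouridine marks newly made RNA through T-to-C conversions in the reads, covered the GABPA line after 1, 2, 4 and 12 h of dTAG-13. The DMSO controls of 1 h and 12 h had groups of their own, while 2 h and 4 h shared 1 DMSO group, so those time points do not stand on independent controls. The titles give that group as 2-4 h and its treatment label as 2 h, so the 4 h values may rest on a control of another duration. Every group had 2 libraries, collected per the study's design text as biological duplicates, controls carry the same degron as the treated cells, and p-values measure the spread between these libraries. The labels used here do not say whether a line is 1 clone. Where the libraries of 2 groups are said not to overlap, this describes the values and adds no support to a call. The share of all genes with such an order is not given.

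Nearly all mitochondrial proteins are made in the cytosol and imported. Precursors pass the outer membrane through the TOM complex. Those with a presequence then cross the inner membrane through TIM23 with the help of the motor and lose the presequence to the processing peptidase, carriers are escorted by small TIM chaperones to TIM22, barrel proteins are inserted by SAM, and cysteine-rich proteins of the intermembrane space are trapped by disulfide bonds that Chchd4 and Gfer provide. GABP, also called nuclear respiratory factor 2, is known as an activator of nuclear genes for mitochondrial proteins.

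RNA-seq libraries held 15957983 to 32091586 counts. SLAM-seq libraries held 11477034 to 30690961 reads in gene intervals, of which 936622 to 4248509 were converted. The 9 stem cell markers examined were all present, with a summed level of 10900 to 12400 TPM in dTAG-13 libraries and 10700 to 11800 TPM in DMSO libraries. The 5 feeder fibroblast markers summed to 2.34 to 4.47 TPM in dTAG-13 and 2.51 to 6.96 TPM in DMSO libraries, and the 5 primitive endoderm markers to 2.64 to 4.39 TPM in dTAG-13 and 1.89 to 2.99 TPM in DMSO libraries. Of these, 3 feeder and 4 endoderm markers were under 1 TPM in every library. In RNA-seq of the GABPA line the stem cell markers Nanog (-0.34) and Utf1 (-0.34) fell, Sox2 (0.20) and Dppa5a (0.16) rose, and so did Col1a1 of the feeder list and Gata4 and Pdgfra of the endoderm list. The part of these shifts in the results was not tested. Because the degron acts on protein, mRNA of the tagged genes is no test of the labels. Gabpa mRNA in the GABPA line was at 31.5 and 32.1 TPM after dTAG-13 and at 20.1 and 20.5 TPM in DMSO. It stood at 57.9 and 58.3 TPM in DMSO cells of the GABPB1 line and at 58.9 and 63.9 TPM in those of the GABPB1/GABPB2 line. The 12 h dTAG-13 SLAM-seq libraries stood apart from the rest, with 50.6% and 47.6% of mapped reads in gene intervals against 52.1% to 55.5% in the other 12.

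In DMSO cells of the GABPA line the import genes spanned a wide range of levels per length. Tomm6, a small TOM subunit, had the highest mean at 445 ± 24.1 TPM (SD, n = 2), followed by Hspa9, the matrix Hsp70 that pulls precursors inward, at 423 ± 4.09 TPM and the presequence receptor gene Tomm20 at 397 ± 78.1 TPM. These neighbours did not differ beyond their spread. Timm23, the core subunit of the presequence translocase, came sixth at 313 ± 8.55 TPM. Dnajc15, a J protein of the motor, and Mtx3, a metaxin, were lowest at 4.8 ± 0.0354 TPM and 1.32 ± 0.141 TPM. Some DMSO levels differed between the lines, in either direction, of which examples follow. Timm10 had 111 ± 3.06 TPM in the GABPA line, against 27.2 ± 1.97 TPM in the GABPB1/GABPB2 line and 31 ± 0.955 TPM in the GABPB1 line (SD, n = 2 each). Mtx2 had 19.1 ± 2.17 TPM in the GABPA line, 12.2 ± 0.0212 TPM in the GABPB1/GABPB2 line and 12 ± 0.615 TPM in the GABPB1 line. Tomm20, at 397 TPM in the GABPA line, had 150 ± 33.7 and 113 ± 4.36 TPM in those 2 lines. Tomm34 stood lower in the GABPA line, at 38.9 ± 1.82 TPM, against 67.4 ± 1.02 and 68.3 ± 1.87 TPM. So did Mtx3, at 1.32 TPM against 3.61 ± 0.552 and 2.87 ± 0.445 TPM.

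The first comparison asked which import genes changed in RNA level 12 h after GABPA removal. Of the 38 genes, 16 fell (42.1%), 4 rose (10.5%) and 18 were not called, at an adjusted p under 0.05 (edgeR's quasi-likelihood test, Benjamini-Hochberg, all genes tested). Among all 16396 genes tested, 21.9% fell and 24.6% rose, so the share of falls among the import genes lay above the background and that of rises below it. Because the list was chosen with earlier results of these data known, this share and those given below describe the list and test nothing. The falls reached large sizes, with 9 genes changed by more than 2-fold, and were spread unevenly over the machinery. All 6 small TIM genes fell, as did 4 of 8 TOM genes, 2 of 3 processing genes, 2 of 5 TIM23 genes, 1 of 4 SAM genes and Tomm34, while none of the 7 motor genes was called. The median of the 38 genes was -0.10 on the log2 scale against 0.06 for all genes. In bulk libraries of this kind, fewer cells of a type and less RNA per cell cannot be told apart, and CPM is relative to the total.

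**Figure D1:**
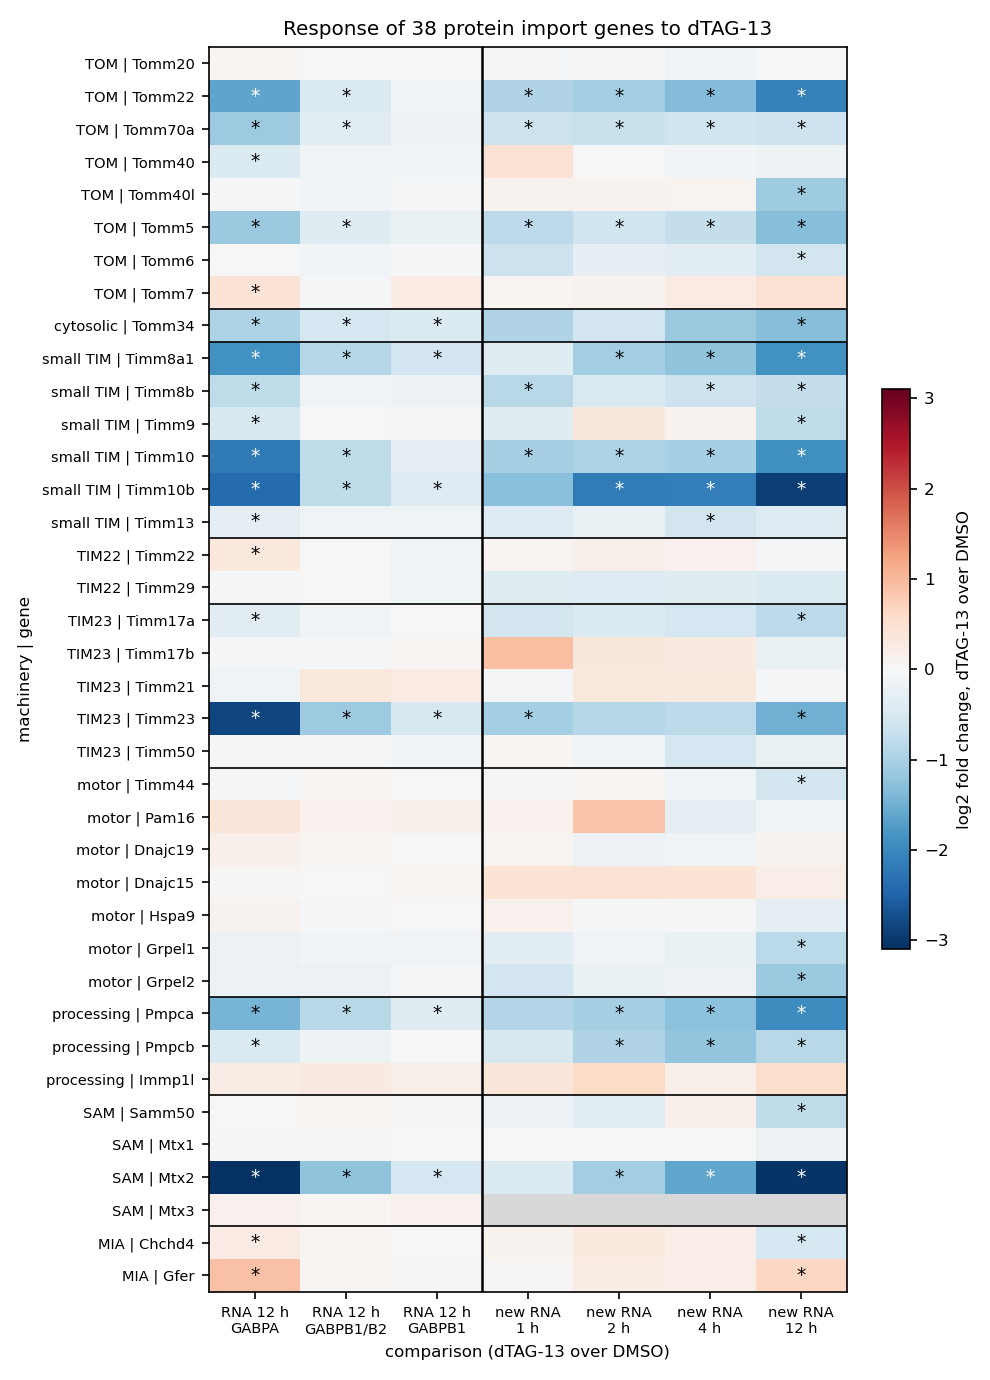
Log2 fold change of the 38 genes (rows, grouped by machinery) after dTAG-13 relative to DMSO in RNA-seq of 3 degron lines and in converted reads of the GABPA line (columns), with asterisks for an adjusted p under 0.05 and grey for a gene too low to be tested. All 6 small TIM genes are blue with asterisks in the first column, where the 7 motor genes carry none.

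The largest fall was that of Mtx2, a metaxin of the outer membrane that works with the SAM channel (mm39 chr2:74656147-74708775, plus strand). It stood at 4.58 and 5.01 CPM after dTAG-13, against 43.6 and 37.1 CPM in DMSO (log2 fold change -3.07 ± 0.125 (SE), adjusted p = 4.29e-12). The other SAM genes showed no such fall. Samm50, which encodes the barrel protein of the complex, was at -0.01 ± 0.0642 (adjusted p = 0.922), and the metaxin paralogs Mtx1 and Mtx3 were at 0.03 ± 0.0656 (adjusted p = 0.774) and 0.13 ± 0.172 (adjusted p = 0.581).

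Timm23 (mm39 chr14:31902119-31923855, minus strand) came next and was the most abundant of the genes that fell by more than 4-fold. Its level was 30.2 and 32.7 CPM after dTAG-13, against 229 and 221 CPM in DMSO (-2.84 ± 0.068, adjusted p = 1.58e-14). The remaining TIM23 genes moved little by comparison. Timm17a, a subunit of the same channel, fell by 0.32 (SE 0.0666, adjusted p = 0.00072), with 74.8 and 72 CPM after dTAG-13 and 95.3 and 88.4 CPM in DMSO. Its paralog Timm17b was at -0.05 ± 0.111 (adjusted p = 0.771), and neither the presequence receptor gene Timm50 (-0.05 ± 0.077) nor Timm21 (-0.14 ± 0.132) was called.

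The small TIM genes encode chaperones that carry hydrophobic precursors through the intermembrane space. Timm10b (mm39 chr7:105289263-105292844, plus strand), whose product sits on the TIM22 complex, had 4.34 and 5.25 CPM after dTAG-13, against 25.3 and 24.9 CPM in DMSO (-2.39 ± 0.135, adjusted p = 2.49e-10). Timm10 (mm39 chr2:84657341-84660557, plus strand), which forms the main carrier chaperone with Timm9, had 7.74 and 8.96 CPM, against 38.6 and 37.4 CPM (-2.18 ± 0.118, adjusted p = 1.36e-10). In both genes the dTAG-13 libraries lay far below the DMSO libraries. Timm9 fell less, with 11.6 and 11.6 CPM after dTAG-13 and 16.5 and 16.3 CPM in DMSO (-0.50 ± 0.111, adjusted p = 0.00143). The other chaperone pair joins Timm8 and Timm13 proteins, and loss of the human counterpart of Timm8a1 causes a deafness-dystonia syndrome. Timm8a1 had 9.11 and 12.6 CPM after dTAG-13, against 43 and 36.9 CPM in DMSO (-1.87 ± 0.129, adjusted p = 3.15e-09). Its paralog Timm8b had 27.2 and 27.7 CPM, against 47.4 and 47 CPM (-0.78 ± 0.0984, adjusted p = 4.85e-06). This pair lay farthest apart of the 6 paralog pairs examined, by 1.09 on the log2 scale. Timm13 was lower by a smaller step, with 117 and 118 CPM after dTAG-13 and 139 and 146 CPM in DMSO (-0.27 ± 0.0914, adjusted p = 0.0206).

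Among the TOM genes, 2 receptor genes and 1 small subunit fell by more than 2-fold. Tomm22, the central receptor that also organises the complex, had 33 and 40.1 CPM after dTAG-13, against 113 and 113 CPM in DMSO (-1.63 ± 0.0891, adjusted p = 1.62e-10). Tomm70a, the receptor for carriers delivered by cytosolic chaperones, had 114 and 135 CPM, against 283 and 265 CPM (-1.13 ± 0.0808, adjusted p = 4.74e-09). Tomm5, a small subunit beside the channel, had 43.1 and 50.1 CPM, against 102 and 105 CPM (-1.15 ± 0.0991, adjusted p = 5.15e-08). The 2 groups of libraries did not overlap for any of these 3 genes. Tomm40, the channel itself, fell to 259 and 263 CPM, against 346 and 358 CPM in DMSO (-0.43 ± 0.0604, adjusted p = 1.65e-05), and its paralog Tomm40l was at -0.06 ± 0.0985 (adjusted p = 0.678). The presequence receptor gene Tomm20 (0.07 ± 0.0624) and Tomm6 (0.00 ± 0.107) were not called. Tomm34, whose product escorts precursors in the cytosol, fell by 0.96 (SE 0.0802, adjusted p = 3.42e-08), to 27.8 and 25.5 CPM against 49.8 and 53.9 CPM in DMSO.

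The matrix processing peptidase is a dimer, and its subunits fell unequally. Pmpca, the alpha subunit that binds the presequence, had 75.9 and 82.4 CPM after dTAG-13, against 217 and 211 CPM in DMSO (-1.44 ± 0.0603, adjusted p = 5.78e-12). Pmpcb, the catalytic beta subunit, had 58.8 and 69.7 CPM, against 91.8 and 85.7 CPM (-0.46 ± 0.0797, adjusted p = 0.000133). Immp1l, a subunit of the inner membrane peptidase, was at 0.23 ± 0.113 (adjusted p = 0.113).

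The 4 rises were smaller than the leading falls. Gfer, the sulfhydryl oxidase that reoxidises Chchd4, had 96.7 and 84.1 CPM after dTAG-13, against 47.8 and 48.5 CPM in DMSO (0.91 ± 0.0816, adjusted p = 8.8e-08). Chchd4, the oxidoreductase that traps small TIM precursors among others, had 149 and 153 CPM, against 128 and 126 CPM (0.25 ± 0.0646, adjusted p = 0.00395). Timm22, the channel for carriers, had 47.9 and 46.7 CPM, against 39.5 and 36.3 CPM (0.32 ± 0.0756, adjusted p = 0.00215), while its partner Timm29 was at -0.05 ± 0.0779. Tomm7, a small TOM subunit, had 131 and 134 CPM, against 99.9 and 98.1 CPM (0.42 ± 0.134, adjusted p = 0.0164). For all 4 genes both dTAG-13 libraries lay above both DMSO libraries. The Tomm7 call was lost with DESeq2 (adjusted p = 0.0709) and when single libraries were left out, namely DMSO replicate 1 (0.43, adjusted p = 0.0684), DMSO replicate 2 (0.40, adjusted p = 0.0889) and dTAG-13 replicate 2 (0.40, adjusted p = 0.0661). The motor genes lay between -0.19 and 0.37, from the exchange factor gene Grpel1 (-0.19 ± 0.0759, adjusted p = 0.0505) to the regulator gene Pam16 (0.37 ± 0.152, adjusted p = 0.0558). Grpel2, the paralog of Grpel1, was at -0.19 ± 0.0941, Hspa9 at 0.12 ± 0.0522, the scaffold gene Timm44 at -0.03 ± 0.0772, and the J protein genes Dnajc19 and Dnajc15 at 0.16 ± 0.102 and 0.03 ± 0.108.

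**Figure D2:**
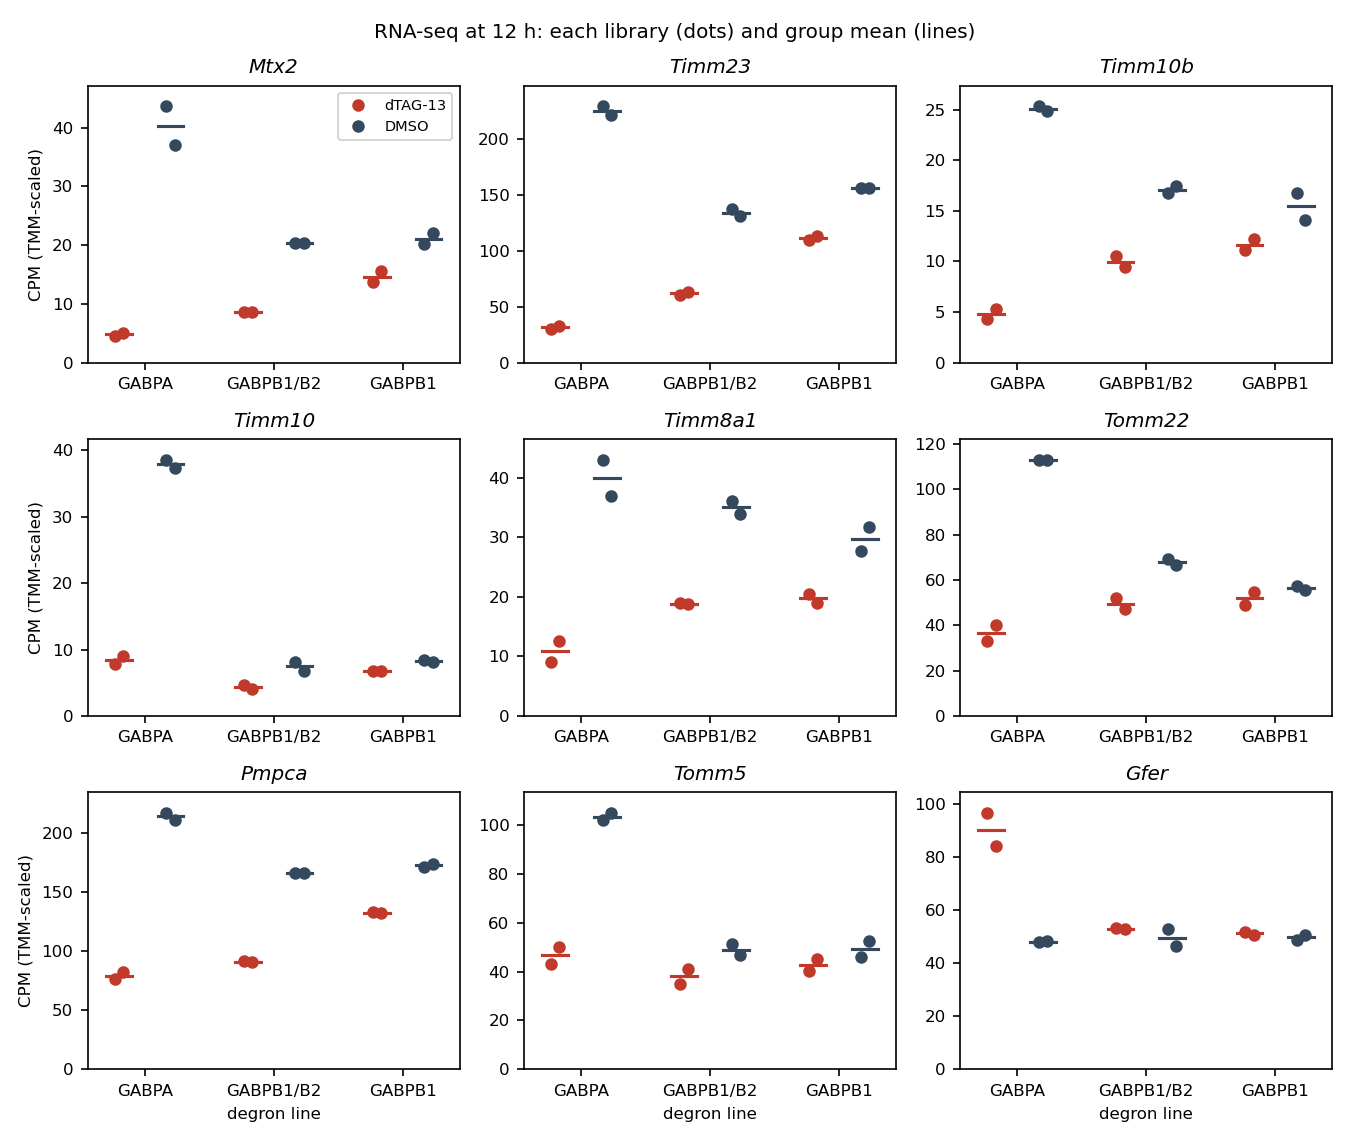
RNA-seq level in CPM (vertical axis, TMM-scaled) of 9 import genes in every library of 3 degron lines, dTAG-13 in red left of DMSO in dark blue, with lines at group means. For Mtx2 the dTAG-13 dots lie at 4.58 and 5.01 CPM in the GABPA line, below those of the other lines, and for Gfer the dTAG-13 dots of the GABPA line alone stand well above DMSO.

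Promoter sequences were available for 33 of the 38 genes, as 300 bases from 250 before to 50 after the RefSeq gene start on GRCm38.p6. There was no entry for Timm21, Tomm7, Tomm40l, Hspa9 and Grpel2. The core of the ETS motif, CCGGAAG, was searched on both strands as exact letters. It was found in 14 of the 33, and in 9.93% of 27025 mouse genes with a promoter (8.86% of 32851 promoters). This background, used for each motif here, was not matched to the 33 in expression and holds genes not tested in RNA-seq. Of the 16 genes that fell in the GABPA line, 10 held a match, as did 4 of the other 17. Within the first group the matches lay between 106 bases before and 43 bases after the start. In the second, Mtx1 and Mtx3 had a match within 12 bases of the start. Mtx3 had another 158 to 164 bases before the start, and the matches in Grpel1 and Timm29 lay 198 to 212 bases before it. The longer CCGGAAGTG, which contains the core, was found in Mtx2, Timm23, Timm10, Tomm70a and Timm29, 5 of 33, against 2.25% of all genes (2.03% of promoters). The NRF1 site GCGCATGC, a target of another activator of nuclear mitochondrial genes, was found in Timm13 and Grpel1 only among the 33, against 3.05% of all genes (2.71% of promoters). A match of letters is a description, and no match says only that these letters are not in the window.

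The promoters of the 4 genes with the largest falls and of the Timm8 pair are printed because they show where the matches lie. Each line gives 120 bases before and 30 bases after the start along the gene, with matches to the ETS core on either strand in capitals (CTTCCGG is the core read on the other strand).
Mtx2: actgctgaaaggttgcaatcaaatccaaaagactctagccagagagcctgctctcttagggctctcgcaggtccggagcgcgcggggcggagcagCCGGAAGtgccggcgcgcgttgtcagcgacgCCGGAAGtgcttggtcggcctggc
Timm23: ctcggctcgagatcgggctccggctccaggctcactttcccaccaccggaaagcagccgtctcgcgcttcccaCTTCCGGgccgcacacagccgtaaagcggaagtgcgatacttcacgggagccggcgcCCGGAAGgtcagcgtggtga
Timm10b: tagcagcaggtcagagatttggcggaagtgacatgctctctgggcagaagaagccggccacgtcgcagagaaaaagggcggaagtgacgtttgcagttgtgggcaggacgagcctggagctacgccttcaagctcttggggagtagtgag
Timm10: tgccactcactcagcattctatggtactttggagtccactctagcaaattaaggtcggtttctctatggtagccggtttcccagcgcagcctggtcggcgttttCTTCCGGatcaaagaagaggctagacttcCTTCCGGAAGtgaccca
Timm8a1: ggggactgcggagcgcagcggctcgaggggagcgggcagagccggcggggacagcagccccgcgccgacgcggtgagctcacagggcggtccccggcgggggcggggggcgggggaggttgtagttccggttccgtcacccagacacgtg
Timm8b: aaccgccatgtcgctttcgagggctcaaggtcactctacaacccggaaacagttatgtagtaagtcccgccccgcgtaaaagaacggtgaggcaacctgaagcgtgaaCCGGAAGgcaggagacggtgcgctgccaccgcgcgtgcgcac
On GRCm38.p6 these windows are chr2:74825692-74825841 (plus strand) for Mtx2, chr14:32201862-32202011 (minus) for Timm23, chr7:105640325-105640474 (plus) for Timm10b, chr2:84826901-84827050 (plus) for Timm10, chrX:134541641-134541790 (minus) for Timm8a1 and chr9:50603781-50603930 (plus) for Timm8b. Mtx2 and Timm23 each held 1 match on either side of the start, and Timm10 held 3, of which the 2 after the start overlap on opposite strands. The match in Timm10b lay at bases 37 to 43 after the start, past the printed window. Timm8a1, with the larger fall of the pair, held no match in its 300 bases, while Timm8b held 1 at bases 12 to 6 before the start.

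**Figure D3:**
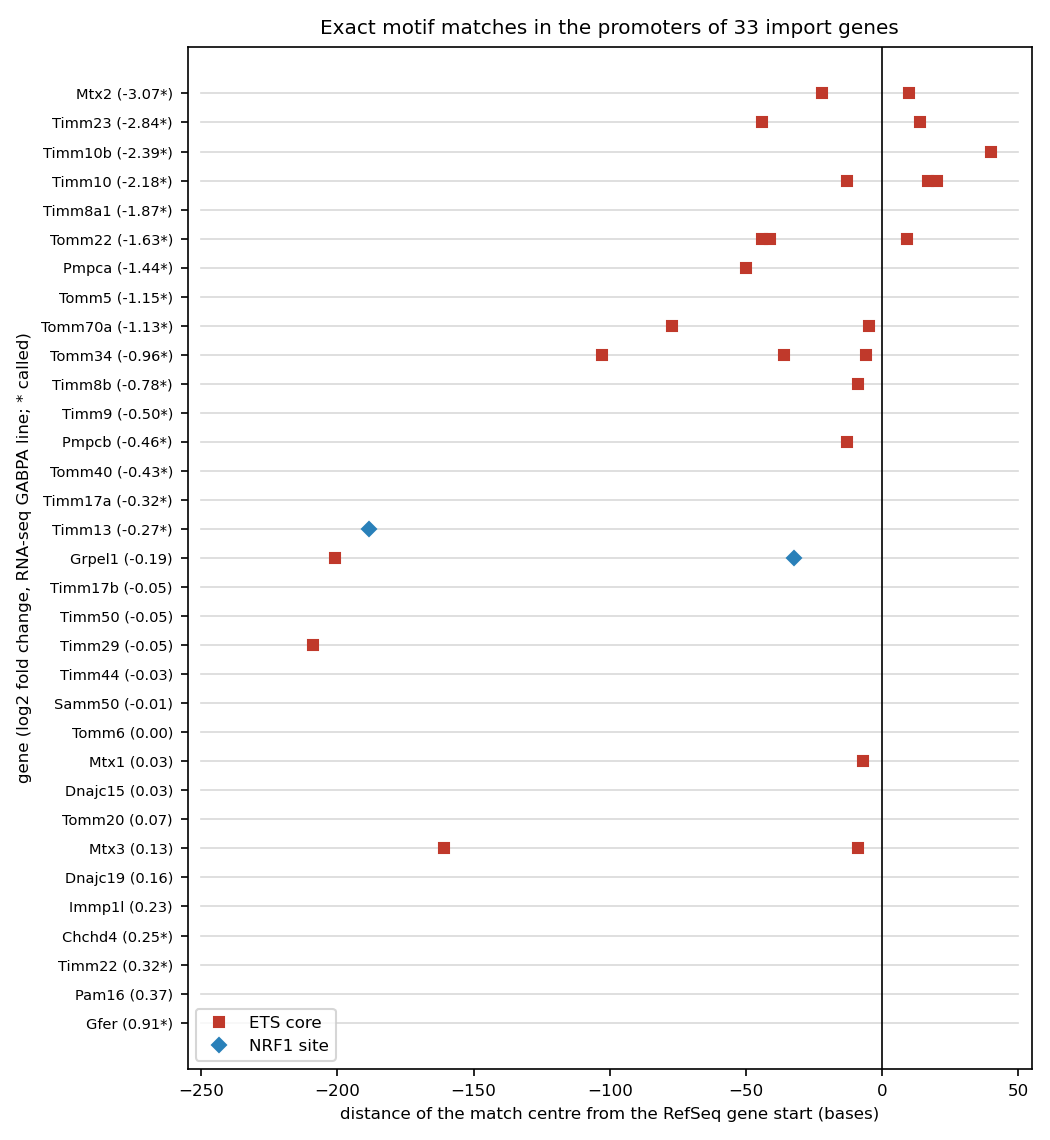
Position of exact matches to the ETS core (red squares) and the NRF1 site (blue diamonds) relative to the RefSeq gene start (horizontal axis, bases) in the promoters of 33 import genes, ordered by log2 fold change in RNA-seq of the GABPA line. ETS core matches of the genes that fell lie between 106 bases before and 43 bases after the start, and Timm8a1, Tomm5, Timm9, Tomm40, Timm17a and Timm13 hold none.

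Removal of the partner subunits was examined in the other 2 lines, with other libraries. In the GABPB1/GABPB2 line 10 of the 38 genes fell (26.3%) and 0 rose, against a background of 9.26% falls and 3.53% rises among all genes. Of the import genes, 2 had a rise at an unadjusted p under 0.05 in edgeR, and DESeq2 called 0 rises and 10 falls. In the GABPB1 line 6 fell (15.8%) and 0 rose, against a background of 5.46% falls and 1.28% rises, with 0 rises at an unadjusted p under 0.05 and 0 by DESeq2. The medians of the 38 genes were -0.06 and -0.05 in these lines, against 0.01 and 0.00 for all genes. The count of falls in the GABPB1 line was 3 without DMSO replicate 2, and that of rises in the GABPB1/GABPB2 line was 1 without DMSO replicate 1. Relative to counting error, the DMSO libraries of the GABPB1/GABPB2 line lay farthest apart of all RNA-seq groups (chi-square 16.1 per degree of freedom).

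Mtx2 and Timm23 had the largest falls in the GABPB1/GABPB2 line, and Timm8a1 and Mtx2 in the GABPB1 line. In the GABPB1/GABPB2 line Mtx2 had 8.54 and 8.62 CPM after dTAG-13, against 20.4 and 20.4 CPM in DMSO (-1.25 ± 0.116, adjusted p = 8.59e-07). In the GABPB1 line it had 13.7 and 15.6 CPM, against 20.2 and 22 CPM (-0.53 ± 0.0994, adjusted p = 0.00302), a call lost when DMSO replicate 2 (-0.45, adjusted p = 0.0908) was left out, or dTAG-13 replicate 1 (-0.43, adjusted p = 0.101). The step was thus larger where both partner subunits carried the tag. Timm23 had 60.9 and 62.8 CPM after dTAG-13 in the GABPB1/GABPB2 line, against 137 and 131 CPM in DMSO (-1.12 ± 0.0628, adjusted p = 1.84e-09). Its level in the GABPB1 line was 110 and 113 CPM after dTAG-13, against 156 and 156 CPM (-0.49 ± 0.0592, adjusted p = 6.22e-05).

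Pmpca had 91.8 and 90.4 CPM after dTAG-13 in the GABPB1/GABPB2 line, against 166 and 166 CPM in DMSO (-0.87 ± 0.0592, adjusted p = 2.07e-08). Its level in the GABPB1 line was 133 and 132 CPM after dTAG-13, against 171 and 174 CPM (-0.38 ± 0.057, adjusted p = 0.00045). The small TIM genes followed in part. Timm8a1 had 19 and 18.7 CPM after dTAG-13 in the GABPB1/GABPB2 line, against 36.1 and 33.9 CPM in DMSO (-0.89 ± 0.117, adjusted p = 4.36e-05). In the GABPB1 line it had 20.5 and 19 CPM, against 27.6 and 31.7 CPM (-0.59 ± 0.11, adjusted p = 0.00302), a call lost when DMSO replicate 2 (-0.47, adjusted p = 0.0989) was left out, or dTAG-13 replicate 2 (-0.52, adjusted p = 0.0729). All dTAG-13 libraries lay below all DMSO libraries of the same line for these genes.

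Timm10b had 10.5 and 9.4 CPM after dTAG-13 in the GABPB1/GABPB2 line, against 16.8 and 17.4 CPM in DMSO (-0.78 ± 0.12, adjusted p = 0.000222). In the GABPB1 line it had 11.1 and 12.2 CPM, against 16.8 and 14.1 CPM (-0.40 ± 0.11, adjusted p = 0.0356), a call lost with DESeq2 (adjusted p = 0.0814) and without any 1 of the 4 libraries (adjusted p = 0.0547 to 0.447). Timm10 had 4.67 and 4.01 CPM after dTAG-13 in the GABPB1/GABPB2 line, against 8.09 and 6.81 CPM in DMSO (-0.78 ± 0.144, adjusted p = 0.00113), and was not called in the GABPB1 line (-0.29 ± 0.12, adjusted p = 0.192). Timm8b, Timm9 and Timm13 were called in neither line. Tomm34, by contrast, fell in both. It had 46.9 and 50 CPM after dTAG-13 in the GABPB1/GABPB2 line, against 72.3 and 70 CPM in DMSO (-0.55 ± 0.0732, adjusted p = 4.53e-05). Its level in the GABPB1 line was 55 and 56.6 CPM after dTAG-13, against 73.4 and 76.7 CPM (-0.43 ± 0.0698, adjusted p = 0.001). The TOM receptor gene Tomm22 fell in the GABPB1/GABPB2 line, with 51.8 and 47.3 CPM after dTAG-13 and 69.3 and 66.7 CPM in DMSO (-0.46 ± 0.0864, adjusted p = 0.00151). Tomm5 (-0.37 ± 0.102, adjusted p = 0.0217) and Tomm70a (-0.36 ± 0.0782, adjusted p = 0.00446) fell there too, and none of the 8 TOM genes was called in the GABPB1 line. Gfer was at 0.09 ± 0.0819 and 0.04 ± 0.0787 in these lines, and no motor, TIM22 or intermembrane space import gene was called in either.

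**Figure D4:**
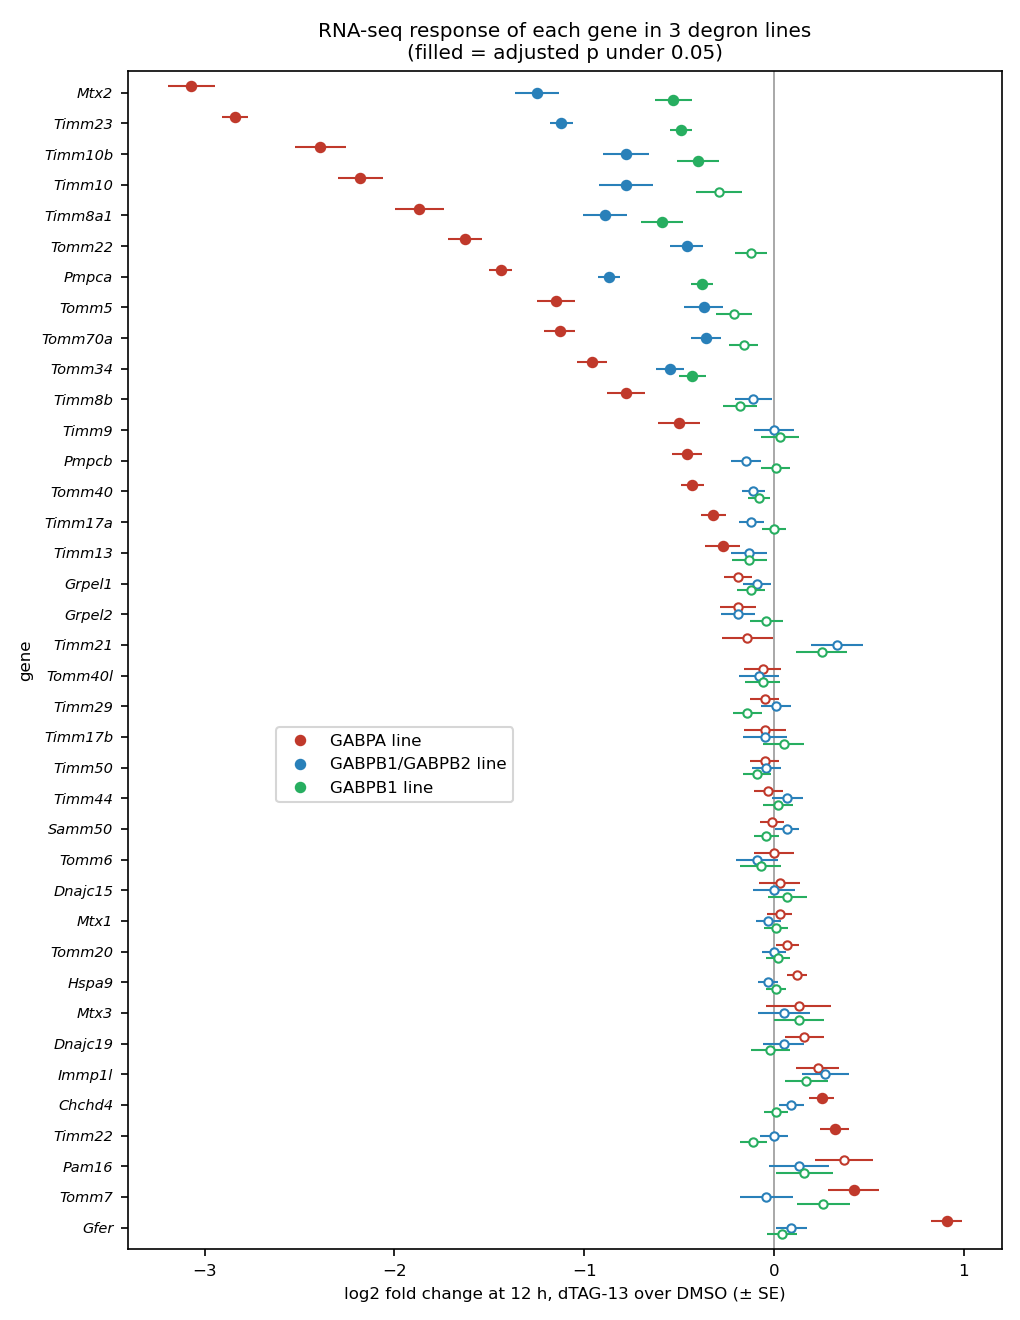
Log2 fold change at 12 h, dTAG-13 over DMSO (horizontal axis, with standard errors), of the 38 genes in RNA-seq of the GABPA (red), GABPB1/GABPB2 (blue) and GABPB1 (green) lines, filled where the adjusted p was under 0.05. From Mtx2 down to Tomm34 the red points lie farthest left, at -3.07 for Mtx2 against -1.25 and -0.53.

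Whether the responses differ between lines was tested as the difference of the log2 changes, in the same fit. These differences share the GABPA and the GABPB1 libraries among themselves, and the lines also differed in their DMSO levels as given above. Relative to the GABPB1/GABPB2 line, the response of the GABPA line was more negative for 13 of the 38 genes (34.2%) and more positive for 2 (5.26%), against 10.7% and 10.1% of all genes. Timm23 differed by -1.72 ± 0.0916 (adjusted p = 4.05e-09), Mtx2 by -1.82 ± 0.177 (adjusted p = 1.42e-06), Tomm22 by -1.17 ± 0.124 (adjusted p = 3.32e-06) and Timm10b by -1.61 ± 0.185 (adjusted p = 8.34e-06). On the other side Gfer differed by 0.82 ± 0.116 (adjusted p = 7.16e-05). Timm22 differed by 0.32 ± 0.107 (adjusted p = 0.0424), a call lost with DESeq2 (adjusted p = 0.0925), with the replicate number as a block (adjusted p = 0.0522) and without any 1 of the libraries other than DMSO replicate 1 of the GABPA line (adjusted p = 0.057 to 0.209). The count of more positive genes was then 1 with DESeq2, with the block and without most of those libraries. The medians of these differences were -0.09 for the 38 genes and 0.03 for all genes.

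Relative to the GABPB1 line, 15 genes responded more negatively (39.5%) and 2 more positively (5.26%) in the GABPA line, against 13.3% and 12.5% of all genes. Timm23 differed by -2.35 ± 0.0895 (adjusted p = 1.83e-11), Mtx2 by -2.54 ± 0.163 (adjusted p = 5.64e-09), Pmpca by -1.06 ± 0.0826 (adjusted p = 5.31e-08) and Tomm22 by -1.51 ± 0.122 (adjusted p = 7.83e-08). Gfer differed by 0.86 ± 0.113 (adjusted p = 2.1e-05) and Timm22 by 0.43 ± 0.104 (adjusted p = 0.00549). The Timm22 call was lost without DMSO replicate 1, DMSO replicate 2 or dTAG-13 replicate 1 of the GABPB1 line (adjusted p = 0.0581, 0.0662 and 0.0954), each of which left 1 more positive gene. Between the GABPB1/GABPB2 and GABPB1 lines 3 genes differed, all more negative in the double line (7.89%), against 0.927% of all genes, and 0 were more positive, against 0.0854% of all genes, with 0 at an unadjusted p under 0.05 and 0 by DESeq2. These were Timm23 (-0.63 ± 0.0861, adjusted p = 0.000715), Pmpca (-0.49 ± 0.0819, adjusted p = 0.00498) and Mtx2 (-0.72 ± 0.153, adjusted p = 0.0303). The Mtx2 call was lost without 5 of the 8 libraries, namely any of the GABPB1 line but dTAG-13 replicate 1, or either dTAG-13 library of the double line (adjusted p = 0.0617 to 0.193).

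Converted reads were examined next, to follow new RNA in the GABPA line from 1 h on. At this depth 37 of the 38 genes could be tested, as Mtx3 had 1 to 10 converted reads per library. Converted reads made up 5.44% and 6.08% of reads in the 1 h DMSO libraries, 10.42% and 11.35% in the 2-4 h ones and 14.12% and 13.99% in those of 12 h. The times are thus not on 1 scale of labelling, and the part of this in the results by time was not tested. Falls were called in 6 genes at 1 h (16.2%), 9 at 2 h (24.3%), 11 at 4 h (29.7%) and 21 at 12 h (56.8%). The background of falls among 15887 genes was 1.72%, 3.21%, 3.91% and 18.3%. Rises were called in 0 genes at 1, 2 and 4 h and in 1 gene at 12 h (2.7%), against 0.0567%, 0.145%, 0.113% and 12.3% of all genes. In edgeR 1, 2 and 0 import genes had a rise at an unadjusted p under 0.05 at 1, 2 and 4 h, and DESeq2 called 0 at each. The medians of the 37 genes were -0.33, -0.18, -0.21 and -0.56, against 0.00, 0.01, 0.02 and 0.04 for all genes. Counts at the early times moved when single libraries were left out. With the compared libraries fitted alone, 5 genes fell at 2 h. At 1 h the count of falls was 0 without DMSO replicate 1 or dTAG-13 replicate 1. It was 2 when dTAG-13 replicate 2 was left out and 3 when DMSO replicate 2 was. At 2 h it was 4 without DMSO replicate 2 or dTAG-13 replicate 2, and at 4 h 7 and 6 without dTAG-13 replicates 1 and 2. The count of rises at 12 h was 0 without DMSO replicate 1 and 2 without dTAG-13 replicate 1.

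The genes called at 1 h were Timm23, Timm10, Tomm22, Timm8b, Tomm5 and Tomm70a. Timm10 had 45.5 and 67.3 CPM in converted reads after dTAG-13, against 121 and 108 CPM in DMSO (-1.03 ± 0.212, adjusted p = 0.00849). Tomm5 had 202 and 213 CPM, against 391 and 337 CPM (-0.81 ± 0.158, adjusted p = 0.00528). Tomm22 had 60.1 and 63 CPM, against 107 and 127 CPM (-0.93 ± 0.209, adjusted p = 0.0161). In each the dTAG-13 libraries lay below the DMSO libraries. Timm23 had 28.2 and 33.6 CPM, against 67.9 and 59.7 CPM (-1.05 ± 0.274, adjusted p = 0.0482), and its call was lost with DESeq2 (adjusted p = 0.0936). Timm8b had 45.5 and 56.7 CPM, against 85.2 and 98.1 CPM (-0.85 ± 0.215, adjusted p = 0.0381), and was also lost with DESeq2 (adjusted p = 0.0598). Tomm70a had 182 and 193 CPM, against 279 and 316 CPM (-0.67 ± 0.163, adjusted p = 0.0305). Each of the 6 calls was lost without at least 2 of the 4 libraries, with values of -0.58 to -1.17 there. Multimapped reads stood at 11.8 per 100 for Tomm22 and 45.7 per 100 for Tomm5 in SLAM-seq, so their levels in that assay are less certain.

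Mtx2 was not called at 1 h. It was at -0.43 ± 0.237 at 1 h (adjusted p = 0.546), with 41.9 and 48.3 CPM after dTAG-13 and 52.8 and 67.8 CPM in DMSO. At 2 h it had 31.9 and 30 CPM, and at 4 h 17.8 and 24.1 CPM, against 60 and 69.9 CPM in their shared DMSO group (-1.07 ± 0.223, adjusted p = 0.00493, and -1.61 ± 0.245, adjusted p = 0.00014). Leaving out DMSO replicate 2 (-0.95, adjusted p = 0.0813) ended the 2 h call, as did leaving out dTAG-13 replicate 2 (-1.02, adjusted p = 0.0665). At 12 h Mtx2 had 10.6 and 10.8 CPM, against 85.5 and 91.1 CPM (-3.04 ± 0.233, adjusted p = 6.15e-10), close in size to the RNA-seq value from separate libraries.

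Timm10b had the largest value at 2 and 4 h. It had 16.6 and 14.3 CPM at 2 h and 18.8 and 13.2 CPM at 4 h, against 76.5 and 62.2 CPM in the shared DMSO group (-2.16 ± 0.264, adjusted p = 1.38e-05, and -2.14 ± 0.276, adjusted p = 1.93e-05). At 1 h it had 10 and 8.41 CPM, against 21.6 and 24.1 CPM (-1.30 ± 0.372, adjusted p = 0.0845), from 11 and 8 converted reads in dTAG-13 libraries. At 12 h it had 7.22 and 7.37 CPM, against 60.5 and 50.5 CPM (-2.92 ± 0.271, adjusted p = 1.43e-08). Its dTAG-13 libraries lay below DMSO at every time.

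Tomm22 had 96.9 and 82 CPM at 2 h and 89.8 and 62.2 CPM at 4 h, against 209 and 171 CPM in DMSO (-1.08 ± 0.181, adjusted p = 0.000674, and -1.34 ± 0.189, adjusted p = 5.78e-05). At 12 h it had 61.9 and 65.8 CPM, against 273 and 267 CPM (-2.09 ± 0.179, adjusted p = 3.82e-09). Timm10 was nearly level over the early times. It had 115 and 107 CPM at 2 h and 101 and 108 CPM at 4 h, against 243 and 186 CPM (-0.95 ± 0.177, adjusted p = 0.00168, and -1.04 ± 0.181, adjusted p = 0.000665). At 12 h it had 76.1 and 69.7 CPM, against 267 and 279 CPM (-1.90 ± 0.176, adjusted p = 1.39e-08). Timm23 passed the test at 1 h and 12 h, and was at -0.88 ± 0.253 (adjusted p = 0.0536) and -0.81 ± 0.261 (adjusted p = 0.0916) at 2 and 4 h. At 12 h it had 24.8 and 24.9 CPM, against 73 and 67.2 CPM (-1.49 ± 0.233, adjusted p = 2.63e-05), against -2.84 in RNA-seq.

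Of the processing genes, Immp1l was called at no time in converted reads, while Pmpca and Pmpcb were called from 2 h on. At 1 h Pmpca was at -0.90 ± 0.242 (adjusted p = 0.0562) and Pmpcb at -0.50 ± 0.281 (adjusted p = 0.55). The 1 h value of Pmpca was thus close in size to values called at that time. Pmpca had 43.5 and 38.5 CPM at 2 h and 33.6 and 35.8 CPM at 4 h, against 85.3 and 83.6 CPM in DMSO (-1.04 ± 0.218, adjusted p = 0.00524, and -1.28 ± 0.231, adjusted p = 0.000943). At 12 h it had 21.9 and 29.5 CPM, against 90.6 and 104 CPM (-1.96 ± 0.214, adjusted p = 1.73e-07). Pmpcb had 22.7 and 28.5 CPM at 2 h and 23.7 and 18.3 CPM at 4 h, against 45.7 and 51.5 CPM (-0.93 ± 0.247, adjusted p = 0.033, and -1.23 ± 0.265, adjusted p = 0.00542). The dTAG-13 libraries of both genes lay below DMSO at each time. Without dTAG-13 replicate 2 the 2 h call of Pmpca ended (-0.95, adjusted p = 0.0784). That of Pmpcb at 2 h was lost with DESeq2 (adjusted p = 0.118) and without any 1 of the 4 libraries (adjusted p = 0.0656 to 0.349), and at 4 h without dTAG-13 replicate 2 (-1.06, adjusted p = 0.134).

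Timm8a1 had 15.9 and 17.1 CPM at 2 h and 15.8 and 13.9 CPM at 4 h, against 36.9 and 33.1 CPM in DMSO (-1.08 ± 0.295, adjusted p = 0.0404, and -1.24 ± 0.315, adjusted p = 0.0207). Both calls were lost with DESeq2 (adjusted p = 0.143 and 0.0732) and without most single libraries (adjusted p = 0.106 to 0.278), and rest on 16 to 26 converted reads in dTAG-13 libraries. At 12 h it had 13.2 and 16.4 CPM, against 61.9 and 45.1 CPM (-1.88 ± 0.267, adjusted p = 7.85e-06). Tomm5 had 322 and 273 CPM at 2 h and 263 and 277 CPM at 4 h, against 422 and 486 CPM (-0.61 ± 0.149, adjusted p = 0.0188, and -0.75 ± 0.152, adjusted p = 0.00289). Without dTAG-13 replicate 1 the 4 h call of Tomm5 ended (-0.72, adjusted p = 0.0571). Tomm70a had 124 and 156 CPM at 2 h, against 210 and 245 CPM (-0.70 ± 0.16, adjusted p = 0.0105), a call that ended without DMSO replicate 2 (-0.59, adjusted p = 0.155) and also without dTAG-13 replicate 1 (-0.56, adjusted p = 0.236). At 4 h Timm8b (-0.65 ± 0.182), Tomm70a (-0.61 ± 0.162) and Timm13 (-0.58 ± 0.161) were called as well.

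**Figure D5:**
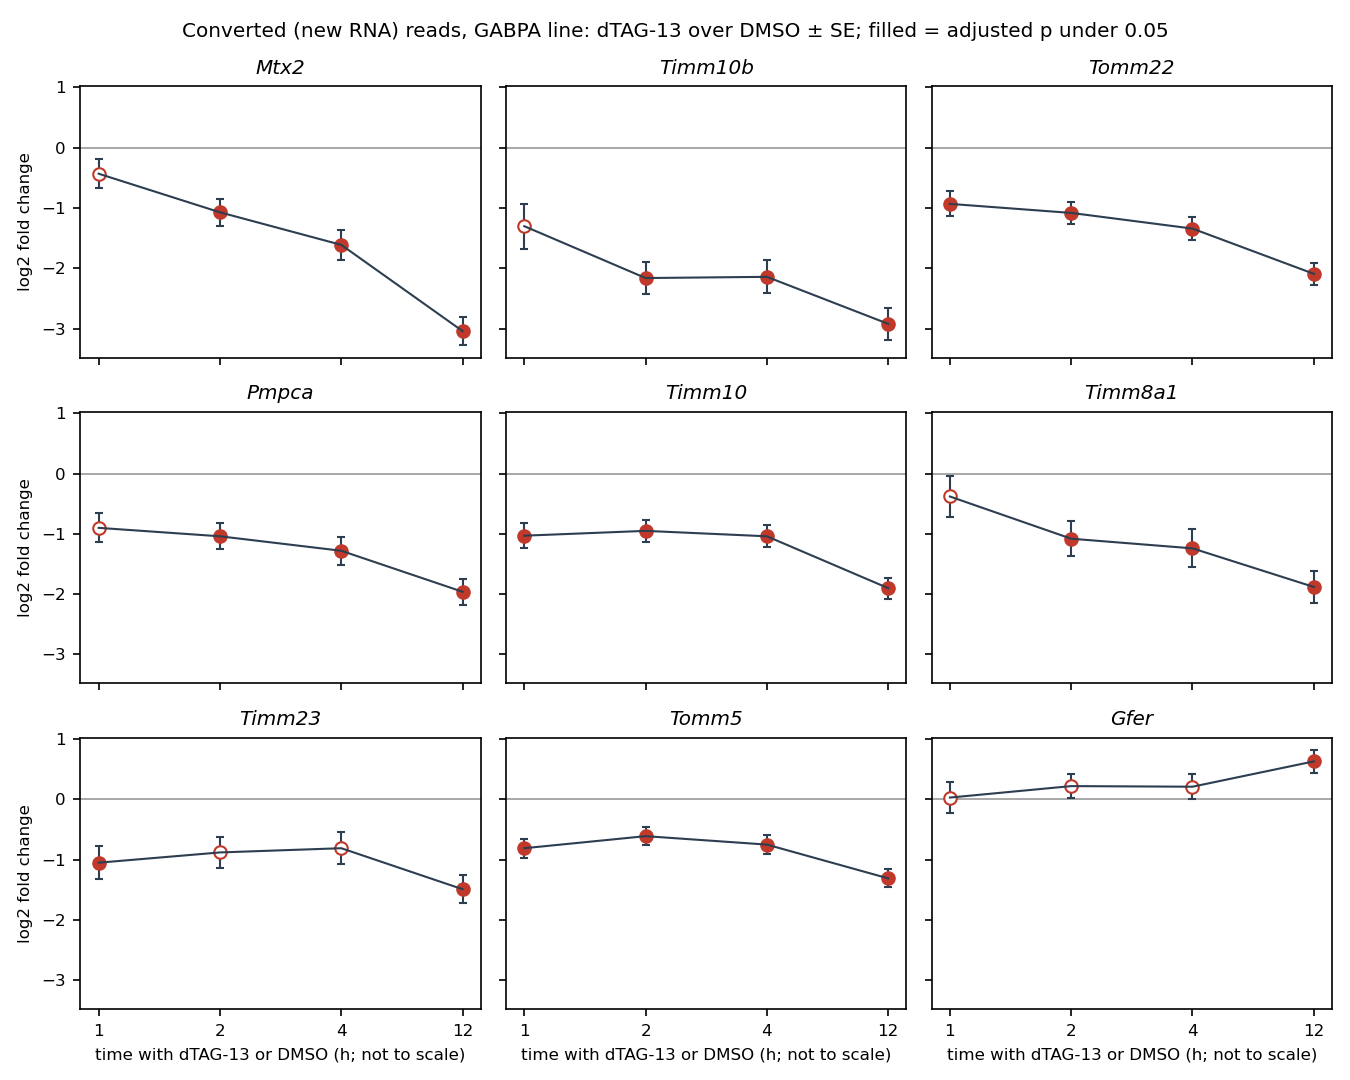
Log2 fold change of converted reads, dTAG-13 over DMSO with standard errors, of 9 import genes in the GABPA line after 1, 2, 4 and 12 h (horizontal axis, evenly spaced), filled where the adjusted p was under 0.05; 2 h and 4 h share their DMSO group. Mtx2 lies at -0.43 at 1 h and at -3.04 at 12 h, Timm10 stays near -1 until 4 h and Gfer is called at 12 h only.

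At 12 h the converted reads of more of the machinery fell. Besides the genes above, Tomm34 had 25.3 and 19.8 CPM, against 54.5 and 61.3 CPM in DMSO (-1.33 ± 0.267, adjusted p = 0.000503). The motor genes Grpel2 (-1.15 ± 0.181, adjusted p = 3.02e-05), Grpel1 (-0.84 ± 0.17) and Timm44 (-0.56 ± 0.164) fell, as did Tomm40l (-1.10 ± 0.332), Tomm6 (-0.56 ± 0.174), Samm50 (-0.79 ± 0.211) and Chchd4 (-0.55 ± 0.157). None of these 7 fell in RNA-seq. Chchd4 moved in opposite directions in the assays, with 490 and 439 CPM in converted reads after dTAG-13, against 708 and 657 CPM in DMSO, beside its rise in RNA-seq. Of the 16 genes that fell in RNA-seq, 14 also fell in converted reads (87.5% of 16 and 66.7% of 21). Among all 12609 genes tested in both assays, 1668 fell in both (51.7% of 3225 RNA-seq falls and 68.2% of 2445 falls in converted reads). The exceptions among the import genes were Tomm40 (-0.15 ± 0.195) and Timm13 (-0.39 ± 0.154). Gfer rose in both assays, with 129 and 123 CPM, against 73.9 and 88.9 CPM (0.63 ± 0.19, adjusted p = 0.0139), a call lost without DMSO replicate 1 (0.55, adjusted p = 0.125). Other paralog pairs in converted reads at 12 h were Timm17a at -0.81 ± 0.161 beside Timm17b at -0.24 ± 0.284, and Dnajc19 at 0.12 ± 0.26 beside Dnajc15 at 0.21 ± 0.197. Mtx1 was at -0.16 ± 0.221. All genes whose log2 CPM averaged at least 7 had a median of -0.15 in this comparison. Among the 9 stem cell markers 4 fell and 2 rose in converted reads at 12 h, with Nanog at -0.76, Zfp42 at -0.74 and Sox2 at 0.83. The part of either in the results was not tested.

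The 12 h response was set against the 1 h response in the same fit, although the share of converted reads differed between these times as given above. It was more negative for 5 of 37 genes (13.5%), against 4.7% of all genes, and more positive for 0, against 2.14% of all genes, with 0 at an unadjusted p under 0.05 and 0 by DESeq2. Mtx2 differed by -2.61 ± 0.335 (adjusted p = 4.17e-05), Tomm22 by -1.16 ± 0.274 (adjusted p = 0.0109), Timm8a1 by -1.50 ± 0.433 (adjusted p = 0.0355) and Timm10b by -1.62 ± 0.485 (adjusted p = 0.0438), and Pmpca by -1.06 ± 0.325 (adjusted p = 0.0494). The count rests on all libraries. It was 2 with DESeq2, 1 without DMSO replicate 1 of 12 h or dTAG-13 replicate 2 of 1 h, 2 without dTAG-13 replicate 1 of 12 h or DMSO replicate 1 of 1 h, and 3 without any other. The Mtx2 call was kept under every alternative run, while that of Timm10b was lost without any 1 library (adjusted p = 0.0569 to 0.199), that of Timm8a1 without 6 of the 8 (adjusted p = 0.0523 to 0.164) and that of Tomm22 without 3 (adjusted p = 0.0525 to 0.0606). Between 4 h and 2 h of dTAG-13 0 of 37 genes differed, beside 0.0% of all genes in either direction. In edgeR 2 of the import genes had a lower value at 4 h and 0 a higher one at an unadjusted p under 0.05, and DESeq2 called 0.

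Counts of all reads in the same SLAM-seq libraries, old and new RNA together, were compared too. At 4 h 6 of 38 genes fell (15.8%), against 2.1% of 26957 genes, and 0 rose, against 0.0334% of all genes, with 0 at an unadjusted p under 0.05 and 0 by DESeq2. Timm10 had 40.7 and 44.4 CPM in all reads, against 101 and 83.3 CPM in DMSO (-1.12 ± 0.16, adjusted p = 0.000813). Mtx2 had 39.1 and 44.4 CPM, against 63.9 and 71.1 CPM (-0.69 ± 0.131, adjusted p = 0.00762). Timm23 had 17.2 and 21.8 CPM, against 30.4 and 35.4 CPM (-0.75 ± 0.167, adjusted p = 0.0239). The remaining calls were Timm10b, with 53.6 and 46.9 CPM against 91.9 and 77.8 CPM (-0.76 ± 0.171, adjusted p = 0.0264), and Tomm22, with 97.6 and 89.7 CPM against 158 and 139 CPM (-0.66 ± 0.137, adjusted p = 0.0149). Tomm70a had 117 and 122 CPM, against 166 and 182 CPM (-0.55 ± 0.132, adjusted p = 0.04). The count was 1 in a fit of these libraries alone, 3 without DMSO replicate 2, and 1 and 2 when dTAG-13 replicates 1 and 2 were left out in turn. The Timm10 call was kept under every alternative run.

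At 12 h 32 of 38 genes fell in all reads (84.2%) and 0 rose, against 27.6% and 29.8% of all genes, with 0 rises at an unadjusted p under 0.05 and 0 by DESeq2. The median change of all genes was 0.14, but it was -0.38 for genes whose log2 CPM averaged at least 3, -0.59 at 5 and -0.70 at 7, in a comparison whose dTAG-13 libraries stood apart as given above. In all reads 5 of the 9 stem cell markers fell, with Nanog at -1.08, and 1 rose, while Gata6, Gata4 and Dab2 of the endoderm list and Postn and Col1a2 of the feeder list rose. The part of these shifts in the count was not tested, and the result cannot be given without these libraries, which are the whole dTAG-13 group. Mtx2 had the largest fall. It had 9.06 and 9.96 CPM, against 110 and 102 CPM in DMSO (-3.48 ± 0.144, adjusted p = 2.22e-10). Timm10b had 8.27 and 10.3 CPM, against 80.7 and 74.1 CPM (-3.07 ± 0.189, adjusted p = 6.17e-09). Pmpca had 33.7 and 23.4 CPM, against 188 and 176 CPM (-2.66 ± 0.238, adjusted p = 3.68e-07). These 3 genes stood at a small fraction of DMSO in all reads. Tomm22 had 40 and 36.9 CPM, against 217 and 208 CPM (-2.47 ± 0.144, adjusted p = 4.12e-09). Timm10 had 21.7 and 21.7 CPM, against 112 and 115 CPM (-2.39 ± 0.166), and Timm8a1 4.59 and 3.5 CPM, against 22.5 and 20.1 CPM (-2.37 ± 0.208). Timm23 had 9.03 and 8.81 CPM, against 47.5 and 42.6 CPM (-2.33 ± 0.173), and Tomm34 23.3 and 18.2 CPM, against 90 and 87.2 CPM (-2.09 ± 0.168). Converted reads made up 33.3% and 30.1% of the Timm23 reads after 12 h of dTAG-13, against 22.6% and 22.8% in DMSO, while for Mtx2 they made up 14.2% and 11.5%, against 11.4% and 12.9%.

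Other genes of the pathway were counted from lists that are not part of the 38. Of 14 further import genes found, 2 fell (14.3%) and 4 rose (28.6%) after GABPA removal in RNA-seq, beside 21.9% and 24.6% of all genes, with a median of 0.08 against 0.06 for all genes. Romo1, the counterpart of a TIM23 subunit of yeast, fell in all 3 lines, by 2.74 (SE 0.202, adjusted p = 7.34e-09) in the GABPA line, 1.69 in the GABPB1/GABPB2 line and 1.16 in the GABPB1 line, and by 3.26 in converted reads at 12 h. Bcs1l, which translocates the folded Rieske protein, fell by 0.37. The presequence proteases Mipep (0.45) and Pitrm1 (0.22), the outer membrane carrier homolog Mtch1 (0.34) and the TOM20 paralog Tomm20l (2.85 ± 0.684) rose. Tomm20l overlaps Timm9 on the opposite strand. Of 14 genes for folding and proteolysis inside mitochondria, 5 fell and 2 rose (35.7% and 14.3%), beside the same background, with a median of -0.01. Yme1l1, the protease facing the intermembrane space, fell by 1.10 (SE 0.0837, adjusted p = 1.13e-08), Oma1, a stress-activated protease, by 1.01, and the prohibitin gene Phb2 by 0.94, while the chaperonin gene Hspd1 (-0.28) and the protease gene Htra2 (-0.42) fell less. Spg7 and Trap1 rose by 0.38 and 0.18.

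Of the 38 genes, 18 overlap a gene on the opposite strand, among them Timm10b with Arfip2, Timm8b with Nkapd1, Pmpca with Inpp5e, Tomm70a with Nit2, Tomm34 with Stk4 and Tomm40 with Gm20512. The sources used here do not give how strand was handled in the counting, so reads of such partners cannot be told apart. Mtx2, Timm23, Timm10, Tomm22, Tomm5, Timm8a1, Gfer and Chchd4 have no such neighbour on the opposite strand. Some members overlap a gene on the same strand, among them Mtx2 with Gm14425, Timm23 with Gm23946 and Timm10b with Gm45799.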

How the data were processed

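The deposited RNA-seq files give expected counts and TPM per gene, made per the submitters' processing notes with tools that include STAR 2.7.11a and RSEM 1.3.1. They also hold RSEM's posterior standard deviation of the count, a score used here only as a check. For SLAM-seq, the deposited tables hold counts of all, converted and multimapped reads per gene interval, which slamdunk 0.4.3 produced, per the file headers. The genome was mm39, per the submitters' processing notes. Their deposited CPM values, relative to all mapped reads, gave the share of mapped reads that fell in gene intervals. Expected counts were rounded. RNA-seq, converted and all SLAM-seq counts had a fit each in edgeR 4.0.16 under R 4.3.3: TMM scaling, genes kept by filterByExpr (minimum count 10, total 15), a mean per group and the quasi-likelihood test, with p adjusted over all genes by Benjamini-Hochberg and called at an adjusted p under 0.05. The CPM values in the report are TMM-scaled and computed from counts. Standard errors are the absolute log2 change divided by the square root of F.

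The members, gene lists, motifs and naming rule were chosen with earlier results of these data known. In each comparison with DMSO the rule named the 8 called members with the largest fall and the 4 with the largest rise, in each difference the 4 with the smallest p per direction, and 6 paralog pairs throughout. No group's replicates were alike within counting error (chi-square at least 1.96 per degree of freedom). In RNA-seq this value was 16.1 for DMSO in the GABPB1/GABPB2 line and 3.12 to 6.56 elsewhere. In all SLAM-seq reads it ran from 5.55 to 31.5, highest in the 2-4 h DMSO group. The fit was tested on simulated data. Alternatives were DESeq2 1.42.0, its size factors in edgeR, no filter, a minimum average log2 CPM of 3, the compared libraries alone, a block for replicate number and leaving out each library. Of 92 samples, 66 are not used here. Promoters are RefSeq's, on GRCm38.p6.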

Additional observations from a re-analysis of the deposited data

Results flagged for a closer look

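These results are listed because the difference between 2 responses was itself tested and called, by edgeR's quasi-likelihood test. Between the GABPA and GABPB1/GABPB2 lines the log2 responses differed by -1.82 for Mtx2, -1.72 for Timm23, -1.61 for Timm10b, -1.17 for Tomm22, 0.82 for Gfer and 0.32 for Timm22. Between the GABPA and GABPB1 lines they differed by -2.54 for Mtx2, -2.35 for Timm23, -1.51 for Tomm22, -1.06 for Pmpca, 0.86 for Gfer and 0.43 for Timm22. Between the GABPB1/GABPB2 and GABPB1 lines the differences were -0.72 for Mtx2, -0.63 for Timm23 and -0.49 for Pmpca. In converted reads, the 12 h response differed from that at 1 h by -2.61 for Mtx2, -1.62 for Timm10b, -1.50 for Timm8a1 and -1.16 for Tomm22. With DESeq2 the calls of Timm10b and Timm8a1 between these times were lost (adjusted p = 0.0824 and 0.0729). The calls of Tomm22 between these times, of Timm22, and of Mtx2 between the GABPB1/GABPB2 and GABPB1 lines were also lost under some alternatives, as given above. Each line has its own DMSO levels, and the part of these levels in the differences between lines was not tested.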

How the results depend on the processing

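Of 168 counts of import genes recomputed with all libraries, 159 stayed within 1.5 times the reported count and 9 did not. In the GABPB1 line, 1 gene rose in place of 0 when its libraries were fitted alone or without a low-count filter. The genes more positive in the GABPA line than in the GABPB1/GABPB2 line numbered 1 in place of 2 with DESeq2, with its size factors, with these libraries alone and with a replicate block. Fitted alone, 5 genes in place of 9 fell in converted reads at 2 h and 1 in place of 6 in all reads at 4 h. With DESeq2, 2 in place of 5 were more negative at 12 h than at 1 h. The cause was not tested. Same-numbered libraries deviated together in no consistent way (correlations of -0.11 to 0.12 in RNA-seq, -0.085 to 0.29 in converted reads and -0.41 to 0.4 in all SLAM-seq reads). These ranges do not show whether some groups are paired by number. For example, Samm50 had 1628 and 2924 reads of all kinds in replicates 1 and 2 of the 2-4 h DMSO group. It had 1416 and 2042 after 2 h of dTAG-13, and 808 and 1836 after 4 h. The main fit takes no pairing into account, and the replicate block moved no other count by over 1.5 times.

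Where 1 library is left out, the lone sample of its group is assumed to vary like the other groups. RNA-seq falls then numbered 15 to 16 in the GABPA line, 3 to 5 in the GABPB1 line and 9 to 14 in the GABPB1/GABPB2 line, and rises 3 to 6, 0 and 0 to 1. Between lines, the more negative genes numbered 11 to 17 (GABPA against GABPB1/GABPB2), 14 to 16 (GABPA against GABPB1) and 2 to 4 (GABPB1/GABPB2 against GABPB1), and the more positive 1 to 2, 1 to 2 and 0. In converted reads, falls numbered 0 to 3 at 1 h, 4 to 9 at 2 h, 6 to 10 at 4 h and 15 to 18 at 12 h, rises at 12 h 0 to 2, and genes more negative at 12 h than at 1 h 1 to 3. In all reads, falls numbered 1 to 4 at 4 h and 29 to 32 at 12 h. For single named genes, 849 recomputed values kept their call, 127 lost it and 0 changed sign.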
